A study of Mus musculus with 23 samples.

Results

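The genes described here are 40 genes of the cell division cycle, 24 that act in mitosis and 16 that act in DNA replication, out of 56748 genes listed for mouse melanoma tumors. They were chosen by name from a list of well-known S phase and mitosis genes, and each name occurs on a single row of the counts. RNA was sequenced from 23 tumors that grew from B16-F1 cells, a mouse melanoma line of C57BL/6 origin, implanted under the skin of inbred DBA/2J mice aged 6 to 8 weeks. Drugs were given into the peritoneum (IP, 8 tumors) or into the tumor itself (IT, 15 tumors). CONTROL_IP (n = 2) received saline and CONTROL_IT (n = 4) received DMSO. PTX_IP (n = 2) and PTX_IT (n = 3) received pentoxifylline, a methylxanthine, at 60 mg/kg. NCTD_IP (n = 2) and NCTD_IT (n = 4) received norcantharidin, the demethylated form of cantharidin, at 3 mg/kg. MIX_IP (n = 2) and MIX_IT (n = 4) received both drugs at these doses. All groups share the same implanted line and the same host strain, which is not the strain of origin of the line, and the route is also the batch given in the labels, so route, vehicle and batch cannot be told apart. Each library is 1 tumor with the host cells it held.

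Cells copy their DNA in S phase and divide it in mitosis. Before S phase, Cdc6 and Cdt1 load the Mcm2 to Mcm7 ring onto origins, and Gins2 is part of the complex that turns the ring into an active helicase. Pcna is the sliding clamp of the DNA polymerases, and Rrm1, Rrm2 and Tyms supply deoxynucleotides. E2f1 and cyclin E (Ccne1, Ccne2) switch cells into S phase. Later, Cdk1 with the cyclins Ccna2, Ccnb1 and Ccnb2 starts mitosis, the kinases Plk1, Aurka, Aurkb, Bub1, Bub1b and Ttk control the spindle and its checkpoint, kinesins and spindle proteins (Kif11, Kif20a, Kif23, Tpx2, Nusap1) move chromosomes, centromere proteins and the passenger complex (Cenpa, Cenpe, Cenpf, Birc5, Cdca8) attach them, and Cdc20 and Ube2c act with the anaphase-promoting complex to end it. Mki67 coats mitotic chromosomes and is the usual marker of dividing cells, and Top2a untangles DNA. In tumors, the summed RNA of such genes is widely read as a measure of how many cells are dividing.

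The 2 groups of genes are known to be switched on by different promoter elements, and 2 promoters of each group are shown for that reason. E2F factors bind sites in promoters of replication genes, and late genes carry a cell cycle homology region (CHR) together with CCAAT boxes. The RefSeq promoter table for GRCm38.p6, which covers 250 bases before to 50 bases after each start, held 33 of the 40 genes (20 mitosis, 13 replication). The letters searched, on both strands, were TTTCCCGC, TTTGGCGC, TTTCGCGC, TTTGGCGG and TTCCCGCC for E2F, TTTGAA and TTCGAA for CHR, and CCAAT. Matches of the E2F letters can overlap each other, and TTCGAA, which reads the same on both strands, was counted once. Of the mitosis genes, 16 of 20 (80.0%) held a CHR match, against 2 of 13 replication genes (15.4%) and 21.7% of all 27025 promoters. These 16 mitosis genes also held a CCAAT match, a pair found in 8.61% of all promoters. An E2F match was present in 7 of 13 replication genes (53.8%), in 1 of 20 mitosis genes (5.0%), which was Cdk1, and in 4.51% of all promoters. Among the promoters of the genes described tumor by tumor below, these had the most separate matches in each group, with Cdk1 taken ahead of Ube2c by name where both had 6. The 250 bases before the start are printed with matches in capitals, placed on GRCm39 by their only exact match.
Top2a, chr11:98915016-98915265, minus strand: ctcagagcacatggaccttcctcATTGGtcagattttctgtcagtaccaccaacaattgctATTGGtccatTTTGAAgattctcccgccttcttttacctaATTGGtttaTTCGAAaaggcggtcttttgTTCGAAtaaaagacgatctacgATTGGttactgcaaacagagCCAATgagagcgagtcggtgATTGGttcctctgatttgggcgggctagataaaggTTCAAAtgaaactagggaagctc
Cdk1, chr10:69188743-69188992, minus strand: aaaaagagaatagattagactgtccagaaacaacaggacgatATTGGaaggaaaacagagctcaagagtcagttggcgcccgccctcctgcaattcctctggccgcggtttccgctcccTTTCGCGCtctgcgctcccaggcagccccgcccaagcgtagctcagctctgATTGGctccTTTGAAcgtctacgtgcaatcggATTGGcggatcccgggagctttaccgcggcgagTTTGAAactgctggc
Mcm5, chr8:75835887-75836136, plus strand: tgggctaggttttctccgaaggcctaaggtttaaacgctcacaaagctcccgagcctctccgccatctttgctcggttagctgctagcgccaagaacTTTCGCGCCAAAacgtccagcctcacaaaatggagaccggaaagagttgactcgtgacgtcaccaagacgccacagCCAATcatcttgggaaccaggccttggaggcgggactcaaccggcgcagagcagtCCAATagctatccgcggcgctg
Mcm6, chr1:128287443-128287692, minus strand: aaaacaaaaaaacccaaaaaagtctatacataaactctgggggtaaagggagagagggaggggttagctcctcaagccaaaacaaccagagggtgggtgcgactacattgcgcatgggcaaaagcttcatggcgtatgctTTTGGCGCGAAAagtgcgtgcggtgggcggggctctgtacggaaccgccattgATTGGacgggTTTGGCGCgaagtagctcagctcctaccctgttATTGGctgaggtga
The Top2a promoter held 6 CCAAT matches and 4 CHR matches, and that of Cdk1 held 3 CCAAT matches, 2 CHR matches and an E2F match. Mcm5 and Mcm6 held no CHR match, had CCAAT matches, and each had overlapping E2F matches in opposite orientations, read as TTTCGCGCCAAA in Mcm5 and TTTGGCGCGAAA in Mcm6. A match describes the letters and is no evidence that a factor was bound in these tumors.

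Between 2861578 and 6702374 reads were counted on genes in each tumor. Levels are given as CPM, the share of a library's reads that fall on a gene written per 1e6 reads, after scaling the 23 libraries by the TMM method, and 3 counts, below which a gene is not told from 0, correspond to 0.449 to 1.04 CPM. Libraries were made from the 3′ end of messenger RNA, and levels are compared between tumors and not between genes. Of the 40 genes, 39 passed the filter on low counts in both routes and 38 had at least 3 counts in every tumor. Kif20a, a kinesin of cytokinesis, had 9 counts over all 23 tumors and was not tested, and Gins2 had 0 to 27 counts per tumor. All 10 melanocyte markers, such as Dct and Pmel, were detected in every tumor, with a summed level of 16534 to 39277 CPM. Xist, the RNA made from the inactive X chromosome of female cells, stood at 5.56, 12.9, 5.19 and 13.6 CPM in NCTD_IT, at 9.20, 11.6 and 1.28 CPM in PTX_IT and at 0 and 8.26 CPM in CONTROL_IP, and at 0 to 0.566 CPM in the other 14 tumors. Tumors with and without Xist therefore do not fall evenly over the groups, and all of NCTD_IT and PTX_IT but none of CONTROL_IT or MIX_IT was above 1 CPM. Ddx3y, a gene of the Y chromosome, was at 1.03 to 8.98 CPM in CONTROL_IT and at 6.83 to 15.5 CPM in MIX_IT. It was at most 0.279 CPM in PTX_IT and at most 0.294 CPM in NCTD_IT. In the IP route Ddx3y was at 5.63 CPM in CONTROL_IP 1, at 0.451 CPM in CONTROL_IP 2 and at 3.28 to 14.1 CPM in the treated tumors. The sex of the host of each tumor is not in the labels. The study describes its treatment groups as sex-matched, which these Xist and Ddx3y levels do not show. Host sex and treatment therefore cannot be told apart in NCTD_IT or in PTX_IT against CONTROL_IT. Among the IP tumors only CONTROL_IP 2 had Xist above 1 CPM and Ddx3y below 1 CPM, so both controls of this route also differ in these genes.

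The summed level of the mitosis genes differed 3.26-fold between the lowest and the highest tumor (1126 to 3673 CPM), and that of the replication genes 3.29-fold (735.5 to 2423 CPM). Together the 40 genes made up 0.186% to 0.610% of the scaled counts. The mitosis sum was 3623, 2158, 2744 and 2652 CPM in CONTROL_IT, 1850.4, 1565 and 3315 CPM in PTX_IT, 1962, 2492, 2968 and 1126 CPM in NCTD_IT and 3204, 1704, 3673 and 2590.1 CPM in MIX_IT. By the IP route it was 2456 and 1823 CPM in CONTROL_IP, 1172 and 2707 CPM in PTX_IP, 1962 and 1496 CPM in NCTD_IP and 2238 and 2314 CPM in MIX_IP. The ranges of all 4 IT groups overlapped, and tumors of NCTD_IT alone spanned a 2.64-fold range. The group means ± SD were 2794 ± 610 CPM in CONTROL_IT (n = 4), 2244 ± 939 CPM in PTX_IT (n = 3), 2137 ± 789 CPM in NCTD_IT (n = 4) and 2793 ± 851 CPM in MIX_IT (n = 4), so no mean differed from another by more than the larger of the SDs. The replication sum put the 15 IT tumors in the same order, and was 1362, 1619, 1999.7 and 736 CPM in NCTD_IT and 2323, 1425, 1809 and 1768 CPM in CONTROL_IT. In bulk tumor RNA, fewer dividing cells and less of this RNA in each cell cannot be told apart.

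**Figure D1:**
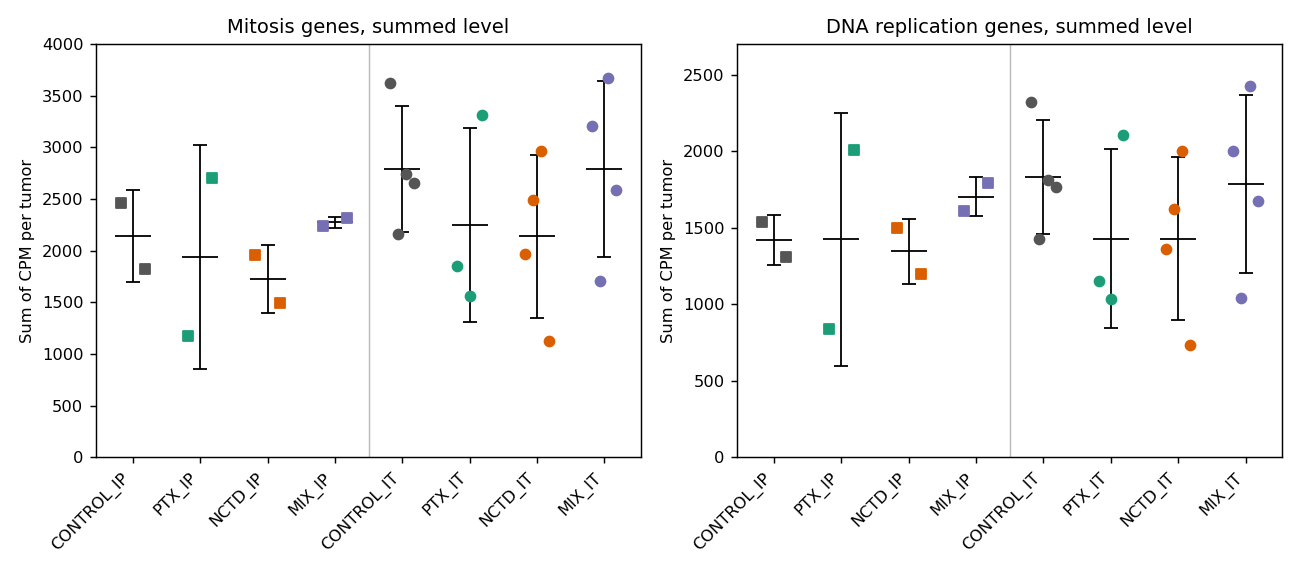
Summed level (sum of CPM, linear axis from 0) of the 24 mitosis genes and of the 16 replication genes in each tumor, by group; squares are IP tumors, circles IT tumors, and black bars give the group mean and 1 SD. Tumors of the same group spread widely, for example from 1126 to 2968 CPM in NCTD_IT for mitosis, and the IT groups overlap.

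Members moved together from tumor to tumor within the groups. With each gene's group mean removed (log2 CPM with a prior count of 2, 23 tumors, 15 residual degrees of freedom), the median correlation between pairs of members was 0.83, against 0.00052 over all pairs of the 13395 genes tested in the 23 tumors. It was 0.84 among mitosis genes, 0.76 among replication genes and 0.83 between a mitosis gene and a replication gene, so the correlation across the 2 groups of genes was as high as inside them. The first principal component of these deviations held 74.1% of their variance, with the same sign for all 39 members. Mcm3 (r = 0.99), Ccnb2 (0.97) and Top2a (0.97) followed the mean of the other members most closely, and Gins2 (0.14), Cdc20 (0.44), Ccne2 (0.45) and E2f1 (0.61) least; these genes were picked after their values were seen. Gins2 and Ccne2 had the lowest counts of the tested members, and reads of Cdc20 and Gins2 may be shared with the antisense genes Elovl1 and Gse1, which had 361% and 80.4% of their counts. The total count of a tumor had a rank correlation of -0.17 with the mitosis sum over the 23 tumors. With group means removed, the Pearson correlation of their log2 values was -0.52 over all tumors, -0.39 in IT and -0.97 in IP. The part of sequencing depth in the levels of the members was not tested. These correlations describe the same libraries and scaling and carry no p-value.

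**Figure D2:**
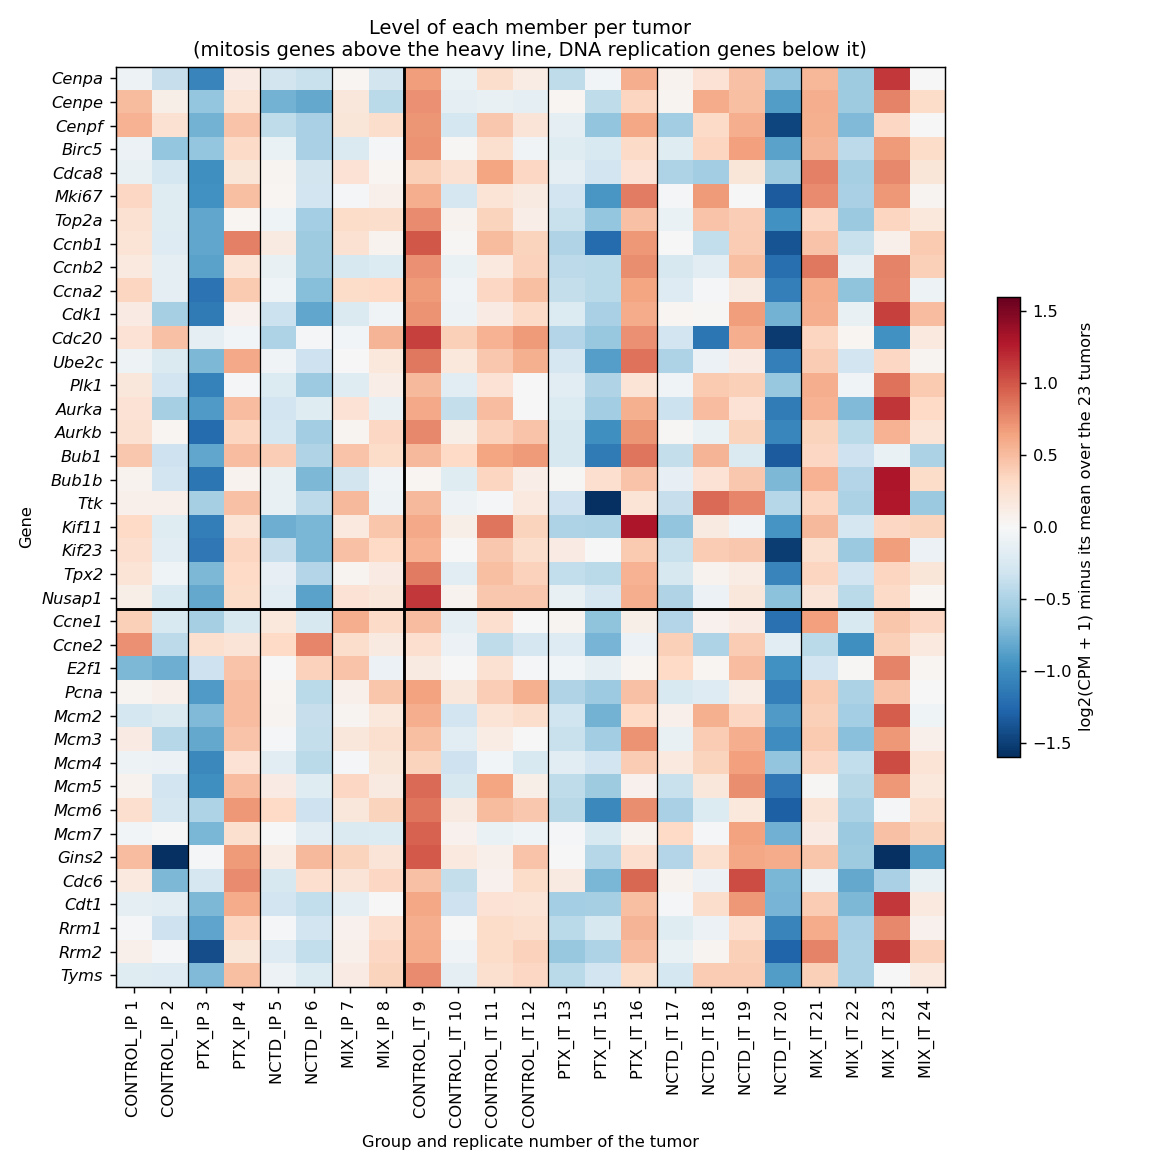
Level of the 39 tested members (rows) in the 23 tumors (columns) as log2(CPM + 1) minus the gene's mean over all tumors, with mitosis genes above the heavy line. Columns are mostly of 1 color from top to bottom, blue in PTX_IP 3 and NCTD_IT 20 and red in CONTROL_IT 9 and MIX_IT 23, while Gins2, Cdc20, Ccne2 and E2f1 depart from their columns.

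Tumors with high levels of these genes had low levels of T cell, NK cell and macrophage markers. The summed CPM of 10 T and NK cell markers ranged from 2.67 in MIX_IT 23, the tumor with the highest mitosis sum, to 346 in NCTD_IT 20, the tumor with the lowest. Over the 23 tumors the rank correlation of this marker sum with the mitosis sum was -0.93 (Pearson -0.89, and -0.87 without the 2 tumors farthest from the median), and it was -0.96 in the 15 IT tumors and -0.86 in the 8 IP tumors. The 10 macrophage markers summed to 190.1 to 1796 CPM and gave a rank correlation of -0.90 over all tumors, -0.90 in IT and -0.74 in IP. Within groups, all 9 tested T and NK markers (median r = -0.85) and all 10 macrophage markers (median r = -0.85) had a negative correlation with the mean of the members, while the medians were 0.20 for 8 fibroblast markers, 0.12 for 6 endothelial markers, -0.38 for 10 melanocyte markers and 0.26 for 4 neutrophil markers, 3 of which were positive. Over all 13395 genes the median was -0.02, and 3.64% of genes lay below -0.8. Of the T and NK markers, Cd3d and Ncr1 were at 0 in 4 tumors each and Cd4 in 9 tumors, and no macrophage marker was at 0 in any tumor. Both lists together made up at most 0.214% of the scaled counts. That is the share of these marker genes and not the share of RNA from immune cells. All these values share their libraries and their scaling, and the part of immune cells in the levels of the members was not tested.

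**Figure D3:**
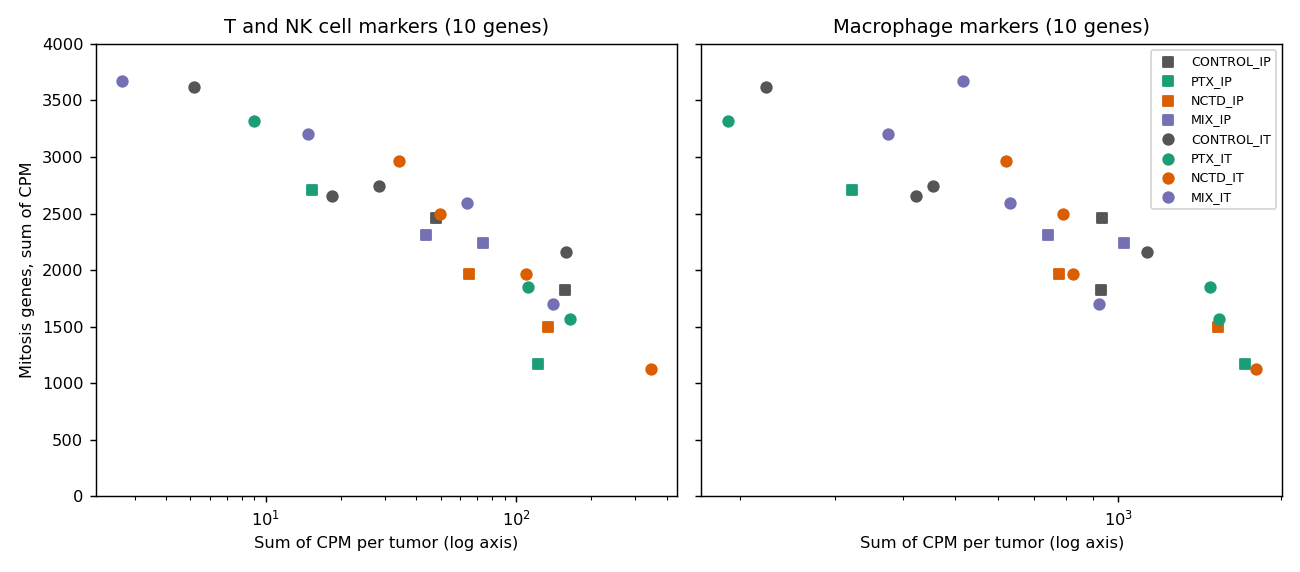
Mitosis sum (CPM, linear axis) of each tumor against the summed CPM of 10 T and NK cell markers and of 10 macrophage markers (log axes), colored by group; squares are IP tumors and circles IT tumors. The mitosis sum is lower where either marker sum is higher, across groups and inside them, from 3673 CPM at 2.67 CPM of T and NK markers to 1126 CPM at 346 CPM.

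The direct comparison of norcantharidin with vehicle in the tumor asks whether the drug changed these genes. None of the 39 tested members passed an adjusted p below 0.05 in NCTD_IT against CONTROL_IT in edgeR's quasi-likelihood test, which called 1.37% of the 12480 genes tested. Values below the controls were frequent. A log2 fold change below 0 was found for 21 of 23 mitosis genes and 13 of 16 replication genes, against 48.0% of all genes. The medians were -0.41 and -0.18 against 0.03. Members moved together within groups (median pair correlation 0.83), so counts of members, here and below, are not counts of independent observations. At an unadjusted p below 0.05 there were 8 members (20.5%), all lower, against 10% of all genes lower and 21.6% in either direction, and 3 members (7.69%) did not overlap between the groups, all lower, against 8.95% of all genes lower and 16.8% in either direction. Single tumors set the size of this shift: the medians were -0.13 and -0.03 without NCTD_IT 20, -0.33 and 0.00032 without CONTROL_IT 9, and -0.70 and -0.37 without NCTD_IT 19.

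Pcna, the polymerase clamp, was at 152, 156, 196 and 84.01 CPM in NCTD_IT and at 282, 204, 236 and 267 CPM in CONTROL_IT, a log2 fold change of -0.75 ± 0.29 (SE, n = 4 and 4, adjusted p = 0.149, edgeR). All treated tumors lay below all controls, and the pseudogene Pcna-ps2, whose reads may be mixed with those of Pcna, had 9.69% of its counts. Ube2c, which marks mitotic cyclins for destruction, also did not overlap, at 136, 179, 209 and 89.1 CPM against 344, 215, 258 and 283 CPM (-0.84 ± 0.33, adjusted p = 0.155, edgeR). Cdca8, of the chromosomal passenger complex, was the other such gene, at 40.9, 39.1, 66.7 and 38.9 CPM against 75.7, 69.2, 90.5 and 73.3 CPM (-0.74 ± 0.27, adjusted p = 0.135, edgeR). In each of the 3 genes NCTD_IT 20 was the lowest tumor of its group.

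Nusap1, a microtubule-binding spindle protein, had the smallest p of the members, at 31.1, 41.1, 49.8 and 27.5 CPM against 97.6, 45.6, 59.7 and 59.4 CPM (-0.81 ± 0.27, adjusted p = 0.106, edgeR). NCTD_IT 19, at 49.8 CPM, was the only treated tumor above the lowest control, and the antisense gene Oip5 had 18.7% of the counts of Nusap1. Mcm6, a subunit of the helicase ring, was at 137, 169, 221 and 79.5 CPM against 357, 219, 282 and 266 CPM (-0.88 ± 0.35, adjusted p = 0.155, edgeR). Cdc20, the activator of the anaphase-promoting complex, had the largest fold, at 11.3, 5.87, 21.8 and 4.27 CPM against 31.7, 18.8, 21.4 and 23.5 CPM (-1.15 ± 0.46, adjusted p = 0.161, edgeR), with NCTD_IT 19 inside the control range.

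Further genes of the same machines were spread between values like these and values near the controls. The mitotic motor Kif11 and the spindle factor Tpx2, named after their values were seen, completed the 8 genes at an unadjusted p below 0.05, with log2 fold changes of -0.87 ± 0.41 and -0.65 ± 0.29. Ccnb1, the cyclin of mitotic entry, was at 80.3, 60.8, 106 and 30.1 CPM against 160.4, 81.3, 114 and 103 CPM (-0.72 ± 0.39), and the kinases Bub1 and Aurkb gave -0.77 ± 0.39 and -0.55 ± 0.34, the latter at 64.9, 59.03, 81.9 and 30.4 CPM against 109, 68.1, 82.6 and 87.7 CPM. These 3 genes did not reach an unadjusted p below 0.05, and the ranges of all 3 overlapped with those of the controls. Of the helicase ring, Mcm2 (104, 146, 124 and 52.3 CPM against 149, 79.5, 115 and 120.2 CPM, -0.11 ± 0.35) and Mcm4 (163, 187, 231 and 93.6 CPM against 188, 116, 142 and 123 CPM, 0.25 ± 0.30) overlapped widely. Of ribonucleotide reductase, the large subunit Rrm1 was at 151, 162, 209.9 and 83.2 CPM against 261, 172, 212 and 207 CPM (-0.49 ± 0.31) and the small subunit Rrm2 at 179, 199, 251 and 78.9 CPM against 293, 186, 236 and 249 CPM (-0.44 ± 0.36). Cyclin E1 (Ccne1) was at 25.4, 37.3, 38.7 and 14.9 CPM against 50.2, 31.99, 42.8 and 35.4 CPM (-0.46 ± 0.29). Mki67 was at 98.9, 162, 99.6 and 39.2 CPM against 151, 82.6, 117 and 111 CPM (-0.20 ± 0.41), Top2a at 157, 233, 222 and 85.9 CPM against 285, 176, 216 and 182 CPM (-0.30 ± 0.31), and Cdk1 at 399, 398, 622 and 231 CPM against 643, 372, 428 and 486 CPM (-0.22 ± 0.31). In all 3 genes NCTD_IT 20 lay below every control, while at least 2 of the other treated tumors lay inside the control range. E2f1 gave -0.03 ± 0.30 with a 95% interval of -0.66 to 0.60.

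The number of members called in this comparison depended on the model. DESeq2, which the study used, fitted to these 2 groups alone, called 5 members lower (Nusap1, Ube2c, Cdca8, Mcm6 and Pcna, 12.8% of 39), where it called 4.71% of all genes lower and 10.6% in either direction. Without a filter on low counts edgeR called 7 members lower (17.5% of 40), against 1.57% of all genes lower and 4.43% in either direction. With the log2 level of Xist as a covariate the medians were above 0 (0.91 for mitosis and 0.87 for replication genes), and edgeR called no gene of all those tested. The summed T and NK markers were 109.5, 49.6, 34.2 and 346 CPM in NCTD_IT and 5.15, 158, 28.5 and 18.4 CPM in CONTROL_IT, and the macrophage markers 824, 789.7, 621 and 1796 CPM and 224, 1128, 455 and 424 CPM, with overlapping ranges. As log2 fold changes, 9 of 9 T and NK markers (median 1.71) and 9 of 10 macrophage markers (1.26) were above 0, none past the adjusted test. Neutrophil markers were above 0 for 3 of 3 genes (5.60, 2 past the adjusted test in edgeR), and below 0 were 9 of 10 melanocyte markers (-0.34, 1 past the adjusted test) and 4 of 4 erythroid markers (-1.77). Of the other marker lists, 7 of 7 tested fibroblast markers (median log2 fold change 2.01) and 5 of 5 endothelial markers (1.29, 1 past the adjusted test) were above 0, as were 5 of 5 RNAs kept in the nucleus (Malat1, Neat1, Xist, Meg3 and Kcnq1ot1, median 2.49), of which 3 passed the adjusted test in edgeR. The summed nuclear RNAs were at 873, 1645, 915 and 1297 CPM in NCTD_IT and at 262, 365, 287 and 354 CPM in CONTROL_IT, without overlap. In MIX_IT they were at 569, 645, 1231 and 701 CPM, also above every CONTROL_IT tumor. In PTX_IT they were at 623, 1106 and 303 CPM, which overlapped with CONTROL_IT. The part of Xist, of other cell types or of RNA quality in the values of the members was not tested.

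Pentoxifylline in the tumor gave no call. None of the 39 members passed in PTX_IT against CONTROL_IT (0.0% of all genes did), and none had an unadjusted p below 0.05, against 6.35% of all genes, in edgeR. DESeq2 called none at its adjusted p. Log2 fold changes were below 0 for 22 of 23 mitosis genes and 14 of 16 replication genes (48.4% of all genes). The medians were -0.29 and -0.34 against 0.02. As the members moved together, these counts are not independent observations. Only Cdca8 did not overlap with the controls (2.56% of members, 7.96% of all genes), at 52.7, 46.7 and 68.3 CPM (-0.46 ± 0.29), and Nusap1 was at 40.4, 36.4 and 66.3 CPM against 97.6, 45.6, 59.7 and 59.4 CPM (-0.45 ± 0.29). The helicase subunit Mcm5 had the largest decrease among the replication genes named here, at 52.96, 47.4 and 74.2 CPM against 133, 59.2, 109.6 and 75.8 CPM (-0.69 ± 0.39, adjusted p = 0.8, edgeR).

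The 3 tumors of PTX_IT did not behave alike. PTX_IT 13 and 15 had Ccnb1 at 56.9 and 33.5 CPM, below all controls (160.4, 81.3, 114 and 103 CPM), while PTX_IT 16 had it at 130 CPM. The same split held for Pcna (128, 119.9 and 249.7 CPM against 282, 204, 236 and 267 CPM), for Mcm6 (145, 96.04 and 331 CPM), for Cdc20 (10.03, 9.02 and 24.4 CPM) and for the thymidylate synthase Tyms (40.7, 44.5 and 68.1 CPM against 94.2, 49.95, 66.3 and 69.9 CPM). Without PTX_IT 16 the median of the mitosis genes was -0.78, and it was -0.13 at the other end of the fits that left out a tumor. The T and NK markers were at 112, 164 and 8.99 CPM in these tumors, and the macrophage markers at 1475, 1535 and 190.1 CPM. Among these 3 tumors, those with the lower levels of the members were thus those with more immune markers, and they also had more Xist (9.20 and 11.6 CPM against 1.28 CPM). Ddx3y did not follow this split, at 0.279, 0 and 0 CPM in PTX_IT 13, 15 and 16. With Xist as a covariate the medians were 0.65 and 0.59, where every PTX_IT tumor but no CONTROL_IT tumor had Xist above 1 CPM.

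No member was called for the combination in the tumor, where the mitosis sum spread from 1704 to 3673 CPM. In MIX_IT against CONTROL_IT 0 of 39 members passed the adjusted test (0.0% of all genes) and 0 the unadjusted threshold (13% of all genes) in edgeR, and 0 were called by DESeq2. The medians were -0.11 for mitosis and -0.01 for replication genes against 0.01 for all genes, with 13 of 23 and 8 of 16 below 0 (48.9% of all genes). The sign of both medians turned without MIX_IT 22 (0.10 and 0.18). Only Cdc20 did not overlap (2.56% of members, 9.91% of all genes), at 18.4, 14.7, 6.80 and 15.99 CPM against 31.7, 18.8, 21.4 and 23.5 CPM (-0.77 ± 0.45, adjusted p = 0.489, edgeR). The smallest p values in the group belonged to Nusap1 (50.95, 32.5, 54.4 and 45.1 CPM, -0.52 ± 0.27) and Gins2 (-1.29 ± 0.72), the latter at 4.50, 1.72, 0 and 1.17 CPM with 1 tumor at 0 counts. The fibroblast markers were above 0 for 7 of 7 genes in this comparison (median 3.24), T and NK markers for 5 of 9 (0.42) and macrophage markers for 8 of 10 (0.36).

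Members of the same checkpoint had log2 fold changes of opposite sign in MIX_IT. Bub1 gave -0.69 ± 0.39 (39.2, 24.3, 28.6 and 21.5 CPM against 44.8, 38.8, 48.4 and 50.4 CPM), and Bub1b, which encodes BubR1, gave 0.47 ± 0.31 (75.4, 36.2, 125 and 62.5 CPM against 51.8, 44.04, 64.8 and 54.6 CPM). Neither passed the test (adjusted p = 0.478 and 0.551, edgeR), and their difference was not tested. Leaving out each tumor in turn gave -0.88 to -0.57 for Bub1 and 0.10 to 0.70 for Bub1b, which was highest in MIX_IT 23. Of the helicase ring, Mcm4 was at 183, 111, 303 and 170.2 CPM (0.44 ± 0.30) and Mcm6 at 229, 138, 192 and 236 CPM (-0.50 ± 0.34), and the loader Cdc6 was at 17.8, 10.3, 12.9 and 17.3 CPM against 26.5, 14.2, 19.9 and 23.5 CPM (-0.53 ± 0.39).

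The IT treatments were also compared with each other. No member passed the adjusted test in NCTD_IT against PTX_IT, MIX_IT against NCTD_IT or MIX_IT against PTX_IT (0.0%, 0.00801% and 0.0% of all genes), and at an unadjusted p below 0.05 the counts were 0, 2 and 1 of 39 members, against 3.87%, 6.02% and 3.75% of all genes. The mitosis genes had medians of -0.13, 0.38 and 0.28 in these comparisons, and the replication genes 0.12, 0.17 and 0.25. The 2 genes higher in MIX_IT than in NCTD_IT at that threshold were Cdca8 (0.73 ± 0.27) and Ccne1 (0.62 ± 0.29), and the mitotic kinase Plk1 was the gene higher in MIX_IT than in PTX_IT (0.61 ± 0.28). These comparisons share tumors and are not independent. Xist was at 0 CPM in every MIX_IT tumor and at 1.28 CPM or more in every NCTD_IT and PTX_IT tumor. Host sex and treatment therefore cannot be told apart where MIX_IT was compared with either of them.

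The change in MIX_IT was then set against the sum of the changes in NCTD_IT and PTX_IT on the log2 scale. All 23 mitosis genes and 14 of 16 replication genes lay above that sum (49.2% of all genes did). The medians were 0.74 and 0.54 against -0.01, so levels under the combination were above those that both separate changes added up would give. Because the members move together, the genes do not count as independent observations. No member passed the adjusted test (0.0401% of all genes did), and 3 of 39 members (7.69%) had an unadjusted p below 0.05, all higher, against 4.92% of all genes higher and 11.3% in either direction. They were Cdca8 (1.20 ± 0.40, adjusted p = 0.379), Pcna (1.00 ± 0.42, adjusted p = 0.42) and Ccne1 (0.93 ± 0.43, adjusted p = 0.438, all edgeR). Leaving out each tumor in turn gave medians of 0.45 to 1.17 for mitosis and 0.24 to 0.86 for replication genes, without a call. The same CONTROL_IT tumors enter this value and the comparisons above, and in it 9 of 9 T and NK markers (median -2.64) and 10 of 10 macrophage markers (-1.82) lay below 0. Xist was at 1.28 CPM or more in every NCTD_IT and PTX_IT tumor and at 0.566 CPM or less in every CONTROL_IT and MIX_IT tumor. Host sex and this departure from the sum therefore cannot be told apart.

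**Figure D4:**
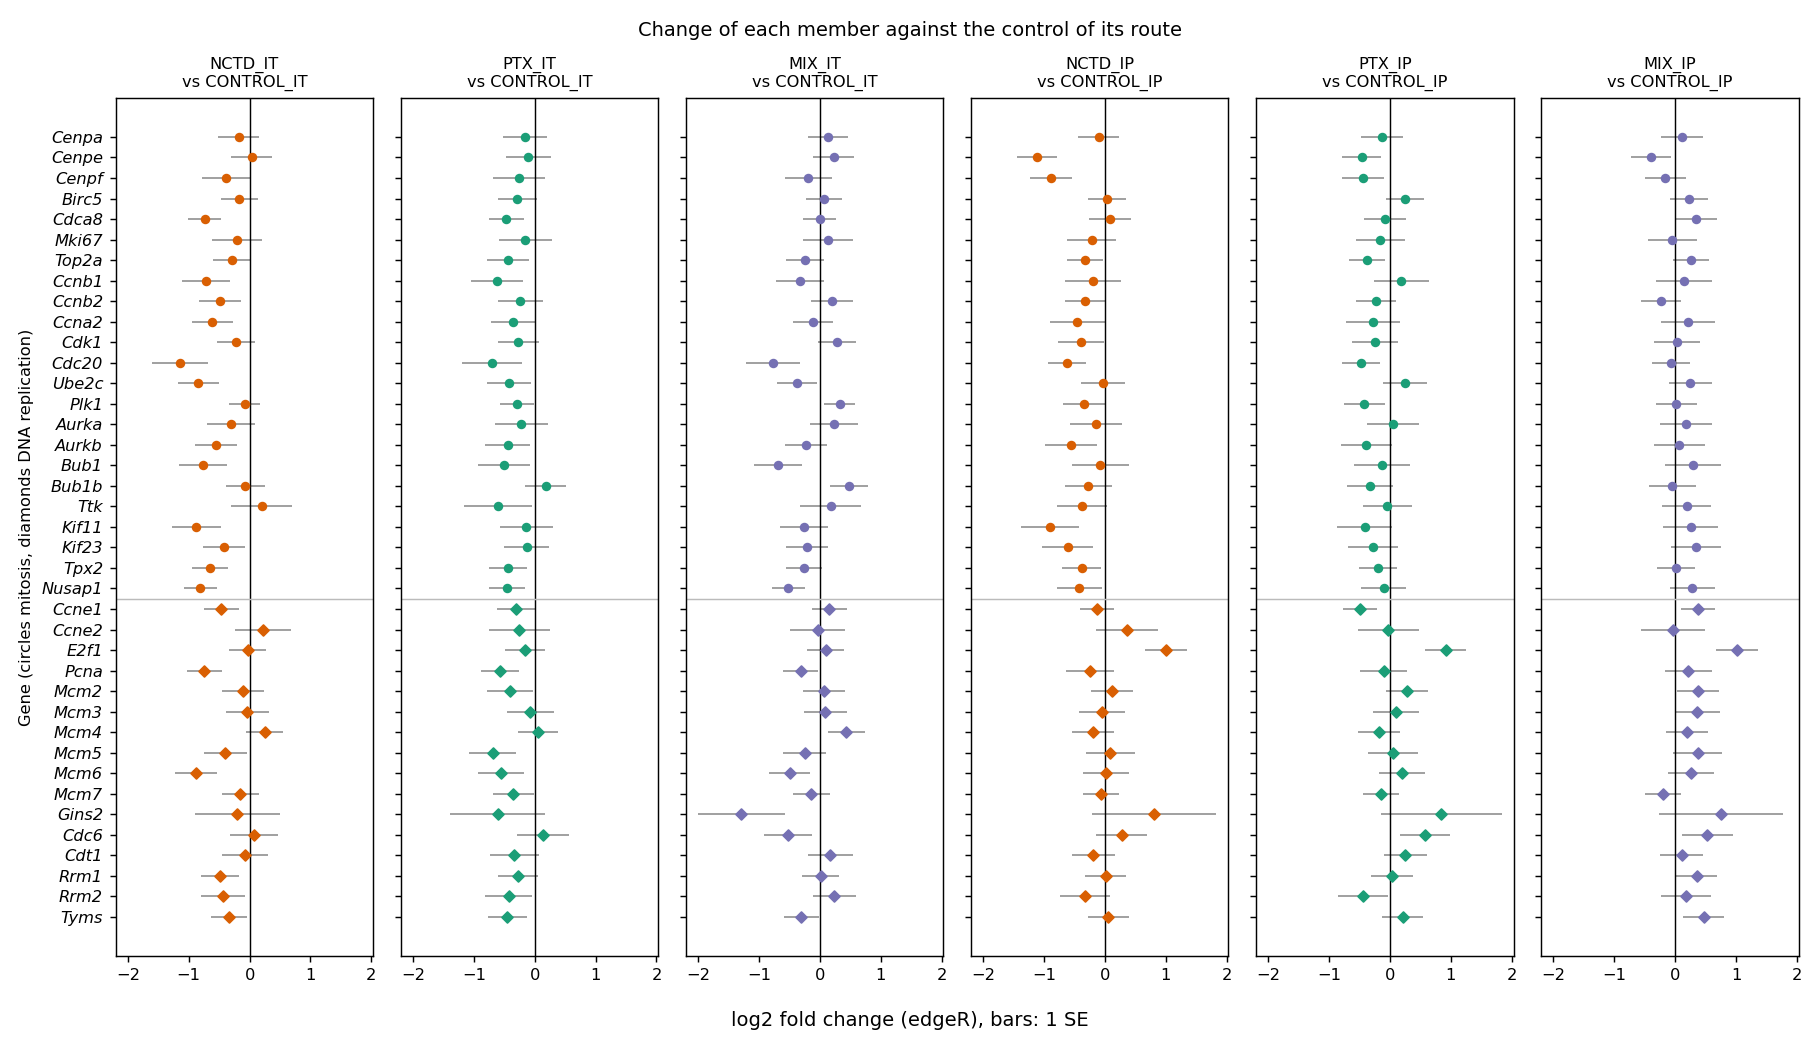
Log2 fold change of each tested member against the control of its route (edgeR, bars 1 SE), for 3 IT and 3 IP comparisons; circles are mitosis genes and diamonds replication genes. Most points lie left of 0 in NCTD_IT and PTX_IT and right of 0 in MIX_IP, while E2f1 lies right of 0 in all 3 IP panels; no member passed the adjusted test.

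In the IP route each group held 2 tumors. No member passed the adjusted test in NCTD_IP, PTX_IP or MIX_IP (0.0% of the 12424 genes tested in each), and DESeq2 called 0 of 39, 40 and 37 members tested. At an unadjusted p below 0.05, NCTD_IP gave 3 of 39 members (7.69%, against 3.59% of all genes), PTX_IP 1 (2.56%, against 5.3%) and MIX_IP 1 (2.56%, against 2.94%). Groups did not overlap for 13 members in NCTD_IP (33.3%, against 34.3% of all genes), 3 in PTX_IP (7.69%, against 31.8%) and 15 in MIX_IP (38.5%, against 35.9%).

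Mitosis and replication genes had different medians under the same IP treatment. In NCTD_IP, 21 of 23 mitosis genes but 7 of 16 replication genes were below 0 (50.9% of all genes), with medians of -0.34 and 0.01. In PTX_IP, 19 of 23 and 6 of 16 were below 0 (48.8% of all genes), with medians of -0.23 and 0.07. In MIX_IP, 6 of 23 and 2 of 16 were below 0 (51.2% of all genes), with medians of 0.14 and 0.36. The 3 comparisons share the 2 tumors of CONTROL_IP, so this shared offset is not a repeated observation. Without CONTROL_IP 1 the mitosis medians were -0.09, -0.03 and 0.33 in NCTD_IP, PTX_IP and MIX_IP, and without CONTROL_IP 2 they were -0.50, -0.40 and -0.04. The replication medians were 0.21, 0.25 and 0.54 without CONTROL_IP 1 and -0.18, -0.12 and 0.13 without CONTROL_IP 2. They stayed above the mitosis medians either way, while their sign depended on the control tumor kept. CONTROL_IP 2 was the only IP tumor with Xist (8.26 CPM), so the control kept and host sex cannot be told apart. The 2 tumors of PTX_IP were far apart, with mitosis sums of 1172 and 2707 CPM, and leaving out one or the other moved the mitosis median from -0.89 to 0.29 and the replication median from -0.61 to 0.60.

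Markers of other cells varied among the IP tumors, and no gene of the lists given here passed the adjusted test in edgeR against CONTROL_IP. In MIX_IP, 9 of 9 T and NK markers (median log2 fold change -0.58), 8 of 8 fibroblast markers (-0.95), 4 of 4 muscle markers (-1.18) and 4 of 4 keratinocyte markers (-2.35) lay below 0. Keratinocyte markers lay above 0 for 4 of 4 genes in NCTD_IP (2.01) and PTX_IP (3.87), and their sum was 0.582 and 7.66 CPM in CONTROL_IP, 133 and 0 CPM in PTX_IP, 2.80 and 36.8 CPM in NCTD_IP and 0 and 1.96 CPM in MIX_IP, so that in PTX_IP and NCTD_IP it was high in 1 tumor each. The T and NK sum was 47.8 and 157 CPM in CONTROL_IP, 122 and 15.3 CPM in PTX_IP, 64.97 and 134 CPM in NCTD_IP and 74.1 and 43.8 CPM in MIX_IP. The part of these cells in the values of the members was not tested.

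E2f1, the transcription factor that opens S phase, had an unadjusted p below 0.05 in all 3 IP comparisons. It was at 11.6 and 11.1 CPM in CONTROL_IP and at 15.6 and 27.5 CPM in PTX_IP, 19.6 and 25.8 CPM in NCTD_IP and 27.4 and 18.5 CPM in MIX_IP. All 6 treated tumors lay above both controls, with log2 fold changes of 0.91 ± 0.34, 1.00 ± 0.34 and 1.02 ± 0.34 and adjusted p values of 0.906, 0.999 and 0.999 in edgeR. The same 2 control tumors stand behind all 3 values. These controls differed in Xist (0 and 8.26 CPM), which was at 0 CPM in all 6 treated tumors, and the part of host sex was not tested. In the IT route its levels were 21.9, 19.9, 23.7 and 19.5 CPM in the controls, which lie inside the range of the treated IP tumors, and its changes there were between -0.16 and 0.09. The difference between the IT and the IP change was -1.03 ± 0.50 for NCTD, -1.07 ± 0.51 for PTX and -0.92 ± 0.50 for MIX, with adjusted p of 0.467, 0.892 and 0.713 in edgeR.

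The smallest p of the mitosis genes in NCTD_IP belonged to a pair of kinetochore genes. Cenpe, a kinetochore kinesin, was at 28.00 and 26.7 CPM against 68.3 and 51.1 CPM (-1.12 ± 0.33, adjusted p = 0.999, edgeR), and Cenpf, a kinetochore protein of late cell cycle, was at 64.4 and 59.2 CPM against 127 and 102 CPM (-0.88 ± 0.34, adjusted p = 0.999, edgeR). Kif11 lay between them in size at 7.56 and 7.88 CPM against 17.3 and 11.9 CPM (-0.91 ± 0.47). Without a filter on low counts Cenpe was the only member called there, where 0.0846% of all genes were called lower and 0.3% in either direction. In the other IP groups Cenpe was at 30.7 and 55.9 CPM in PTX_IP (-0.47 ± 0.32) and at 54.5 and 35.3 CPM in MIX_IP (-0.39 ± 0.32). In the IT route Cenpe in NCTD_IT was at 49.4, 72.8, 67.1 and 25.3 CPM against 80.1, 43.2, 44.1 and 42.7 CPM, with NCTD_IT 20 lowest and the other 3 tumors inside the control range. Cdc20 was lower than both controls in NCTD_IP (9.80 and 14.1 CPM) and in PTX_IP (12.9 and 13.8 CPM against 16.9 and 20.1 CPM), and Ccne1 was at 24.3 and 29.5 CPM in PTX_IP against 46.4 and 29.6 CPM. In MIX_IP Tyms was at 60.5 and 70.7 CPM and Cdca8 at 68.1 and 59.5 CPM, above the controls at 48.1 and 47.5 CPM and 53.6 and 47.8 CPM, with folds of 0.47 ± 0.33 and 0.34 ± 0.34. The kinase Aurkb was at 75.5 and 64.9 CPM in the controls, 52.1 and 42.97 CPM in NCTD_IP and 65.8 and 80.2 CPM in MIX_IP, and Rrm2 at 205 and 192 CPM, 167 and 147 CPM and 205 and 243 CPM in these groups. Both lay below the controls in NCTD_IP, and neither reached an unadjusted p below 0.05 there (-0.56 ± 0.42 and -0.33 ± 0.41).

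The response to each drug was also set against itself across routes, in a model of all 23 tumors. No member differed between routes for NCTD, PTX or MIX at an adjusted p below 0.05 (0.0% of the 13395 genes tested in each), and none had an unadjusted p below 0.05 either (10.8%, 5.23% and 7.44% of all genes) in edgeR. DESeq2 called none at its adjusted p either, with 32, 40 and 34 members tested. Xist was at 1.28 CPM or more in every NCTD_IT and PTX_IT tumor and at most 0.566 CPM in CONTROL_IT. By the IP route it was at 0 CPM in NCTD_IP and PTX_IP and at 0 and 8.26 CPM in CONTROL_IP. Host sex therefore cannot be told apart from the difference between routes for NCTD and PTX. For the level averaged over the 4 treatments, IT tumors were higher than IP tumors for 22 of 23 mitosis genes and 11 of 16 replication genes (50.8% of all genes). The medians were 0.23 and 0.12 against 0.01. Such counts are of genes that move together and not of independent observations. No member passed the adjusted test (0.739% of all genes did), and 4 of 39 (10.3%) had an unadjusted p below 0.05, all higher in IT, against 8.29% of all genes higher and 14.4% in either direction. Without PTX_IP 3 the medians were 0.08 and -0.0017. Xist was above 1 CPM in all NCTD_IT and PTX_IT tumors but, among IP tumors, only in CONTROL_IP 2, so host sex was not even between the routes. The 4 genes were Cdk1 (0.57 ± 0.20), Bub1b (0.51 ± 0.20), the centromeric histone Cenpa (0.47 ± 0.20) and Plk1 (0.40 ± 0.17).

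The ratio of the replication sum to the mitosis sum was higher in 7 of the 8 IP tumors than in every IT tumor. It lay between 0.610 and 0.694 in all 15 IT tumors, at 0.626 in CONTROL_IP 1 and between 0.715 and 0.798 in the other 7 IP tumors. By group it was 0.626 and 0.716 in CONTROL_IP, 0.715 and 0.742 in PTX_IP, 0.763 and 0.798 in NCTD_IP and 0.720 and 0.774 in MIX_IP. Within each route the sums still moved together, with a Pearson correlation of 1.00 in the 15 IT tumors and 0.96 in the 8 IP tumors (rank correlation 1 and 0.93). When each gene had the same weight, as the mean log2 CPM of the replication genes minus that of the mitosis genes, the difference was -0.40 and -0.51 in CONTROL_IP and between -0.20 and 0.15 in the 6 treated IP tumors, but also -0.12, -0.32, -0.12 and -0.08 in NCTD_IT against -0.34, -0.35, -0.45 and -0.37 in CONTROL_IT. On this scale IP and IT tumors overlapped, and the treated IP and NCTD_IT tumors lay above their own controls, while PTX_IT (-0.28, -0.22 and -0.49) and MIX_IT (-0.49, -0.40, -0.51 and -0.33) lay on both sides of CONTROL_IT. This scale gives full weight to Gins2, which was near the floor in some tumors. It was at 0.150 and 4.66 CPM in CONTROL_IP, 2.99 to 5.46 CPM in the treated IP groups and 0 to 4.50 CPM in MIX_IT. The part of Gins2 in these differences was not tested. The sums of 52 other replication and 66 other mitosis genes gave a ratio of 0.502 to 0.602 in IP and 0.460 to 0.576 in IT, which overlapped.

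**Figure D5:**
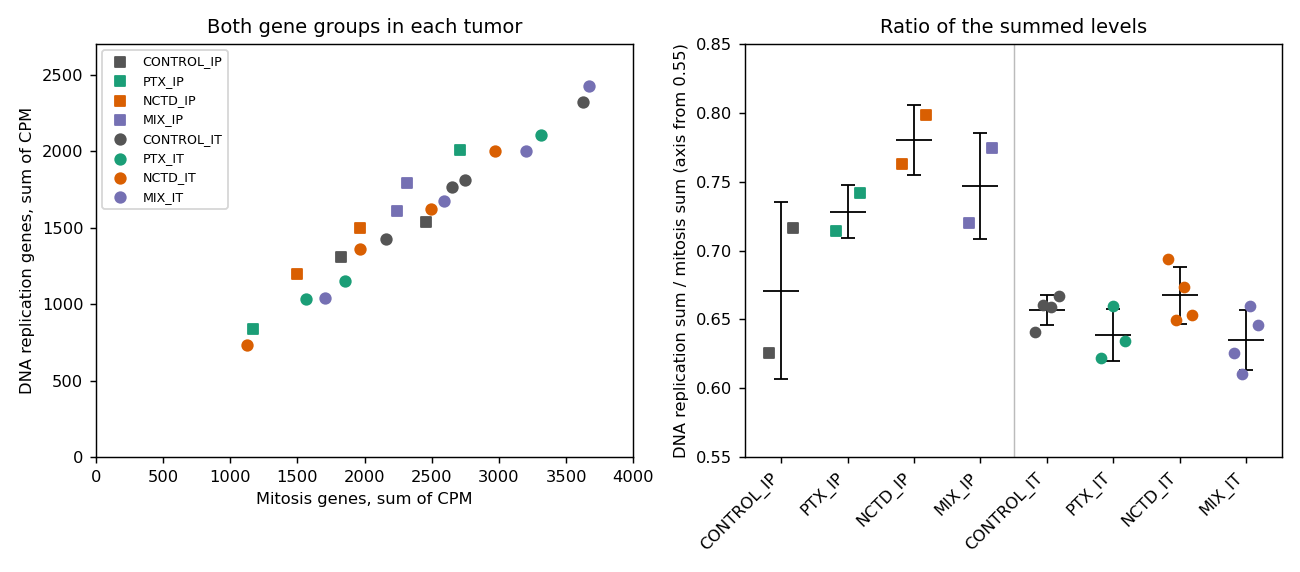
Left, summed CPM of the replication genes against that of the mitosis genes in each tumor; right, their ratio by group (axis from 0.55), with the group mean and 1 SD; squares are IP tumors and circles IT tumors. The sums rise together, and 7 of 8 IP tumors have a ratio above every IT tumor (0.715 to 0.798 against at most 0.694).

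Further genes of the cell cycle were read from lists of 66 other mitosis genes, 52 other replication genes and 36 regulators of G1. No gene of these lists passed the adjusted test in any of the 14 comparisons. In NCTD_IT, 44 of 64 tested mitosis genes and 32 of 49 replication genes were below 0, with medians of -0.23 and -0.14, and in MIX_IP, 51 of 64 and 40 of 49 were above 0, with medians of 0.21 and 0.24. The G1 regulators had medians of 0.12 and 0.22 in these comparisons. Cdkn1a, which encodes the p21 inhibitor of cyclin-dependent kinases, changed by -0.38 ± 0.32 (SE, log2) in NCTD_IT, by -0.66 ± 0.32 in MIX_IT (adjusted p = 0.396) and by 0.90 ± 0.21 in MIX_IP (adjusted p = 0.999, edgeR). Ccnd1, the cyclin of early G1, changed by -0.05 ± 0.32 in NCTD_IT, -0.54 ± 0.32 in MIX_IT and 0.54 ± 0.29 in MIX_IP, and Myc by 0.52 ± 0.43, 0.26 ± 0.42 and 0.22 ± 0.43.

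The genes outside the 40 that followed them most closely from tumor to tumor were listed by the correlation of log2 CPM, with group means removed, with the mean of the 39 members over the 23 tumors; they were taken from the top and the bottom of that order after their values were seen. At the top stood Ezh2 (0.98), which encodes the histone H3 lysine 27 methyltransferase, the mitochondrial chaperone Hspd1 (0.98), Spsb4 (0.98), Cdca3 (0.97) and the histone variant gene H2az1 (0.96). At the bottom stood the cytotoxic granule gene Nkg7 (-0.96), which is also among the T and NK markers, the chemokine Ccl5 (-0.95) and Mgst1 (-0.95). Of the 65 other mitosis genes tested in the 23 tumors, 37 were above 0.8, as were 21 of 50 other replication genes and 3 of 32 G1 regulators, against 3.14% of all genes.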

How the data were processed

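RNA of 23 B16-F1 tumors was sequenced as Collibri 3′ mRNA libraries. The authors deposited raw counts of reads per gene, made per the labels and the submitters' processing notes with FastQC, Trimmomatic and STAR 2.7.11b on GRCm39. The strand setting and the treatment of reads that match several places are not given in the sources used here, so reads of overlapping or copied genes cannot be told apart, and the counts cover reads and not molecules. Groups were taken from the sample titles. The 40 members and all gene lists were chosen with earlier results of these data known.

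Counts were tested with edgeR 4.0.16 (R 4.3.3, limma 3.58.1), using TMM scaling, the filterByExpr rule (at least 10 counts in enough libraries, 15 in all), and the quasi-likelihood test with Benjamini-Hochberg adjustment over all genes tested (threshold 0.05). The 4 groups of a route shared 1 model, and comparisons of routes used all 23 tumors. The filter kept 12480 genes in IT, 12424 in IP and 13395 over all tumors. The steps were tested on simulated data. DESeq2 1.42.0 was an alternative, and the others were DESeq2 size factors, no filter, protein-coding genes, only the groups compared, all tumors in 1 model, Xist as a covariate, the unadjusted p, and leaving out each tumor. P-values set the difference between groups against the spread between tumors of the same group. That spread was estimated over all groups in the model, with information shared across genes.

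Given per tumor were, in each IT comparison with a control, the 4 members of each gene group with the smallest p (2 in each IP comparison), and Mki67, Top2a, Ccnb1, Cdk1, Aurkb, Mcm2, Pcna, Rrm2, Ccne1 and E2f1 in at least 1 comparison whatever their values. Promoters came from RefSeq (GRCm38.p6), and 7 members without an entry were Mcm4, Ccna2, Ccne2, Kif20a, Gins2, Tpx2 and Aurkb. Totals were 2861578 to 6702374 counts per tumor (median 4013068).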

Additional observations from a re-analysis of the deposited data

Results flagged for a closer look

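In 146 groups of 4 tumors, 1 for each member or marker sum and group, the highest or lowest tumor was tested for its distance to the others, which chance would exceed in about 1 in 20 groups, and 7 stood apart. That is about as many as chance would give at this rate. Cdca8 was at 66.7 CPM in NCTD_IT 19 against 38.9 to 40.9 CPM in the other 3 tumors of the group. Cenpe was at 80.1 CPM and Mcm7 at 118.7 CPM in CONTROL_IT 9, against 42.7 to 44.1 CPM and 56.9 to 64.2 CPM in the other controls. This tumor also had the highest mitosis sum of its group. The antisense gene Cops6 had 132% of the counts of Mcm7. Kif20a was at 0.504 CPM in CONTROL_IT 11 and at 0.666 CPM in MIX_IT 24 and at 0 in the others of both groups, values that rest on at most 4 counts. The T and NK marker sum was 158.2 CPM in CONTROL_IT 10 against 5.15 to 28.5 CPM in the other controls, and CONTROL_IT 10 had the lowest mitosis sum of the controls. The neutrophil marker sum was 1093 CPM in NCTD_IT 18 against 17.9 to 46.3 CPM in the other 3 tumors. No member passed the test of a difference between routes in its response to a drug, and Kif20a was not tested.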

How the results depend on the processing

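No paired analysis was possible because the labels number the tumors through all groups, so that no number occurs in more than 1 group. In the 6 comparisons with a control, no member passed the adjusted test in edgeR, nor with DESeq2 size factors, protein-coding genes alone, all 23 tumors in 1 model, only the groups compared, Xist as a covariate, or in any fit without 1 tumor. Without a filter 7 members were called in NCTD_IT and 1 in NCTD_IP, DESeq2 called 5 in NCTD_IT, and an unadjusted p below 0.05 was reached by 8 members in NCTD_IT, 3 in NCTD_IP, 1 in PTX_IP and 1 in MIX_IP. Over all genes NCTD_IT had 171 calls, with 1190 without a filter, 1380 in DESeq2, 777 with all tumors in 1 model, 946 with only the groups compared and 0 with Xist as a covariate. The cause was not tested.

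With Xist as a covariate the medians of the mitosis and replication genes were 0.91 and 0.87 in NCTD_IT and 0.65 and 0.59 in PTX_IT. The log2 fold changes in that fit turned sign in NCTD_IT for Nusap1 (0.24), Cdca8 (0.071), Ube2c (0.81), Cdc20 (1.08), Pcna (0.53), Mcm6 (0.94), Ccne1 (0.29) and Rrm1 (0.74), and in PTX_IT for Cdca8 (0.20), Nusap1 (0.37), Ccnb1 (1.08), Cdc20 (1.11), Pcna (0.42), Mcm5 (0.32), Mcm6 (0.79) and Tyms (0.22). All tumors of NCTD_IT and PTX_IT and none of CONTROL_IT had Xist above 1 CPM. This covariate and the contrast of treatment with control are therefore largely the same in both comparisons, and the cause was not tested. Leaving out 1 tumor moved the mitosis median from -0.78 to -0.13 in PTX_IT and from -0.89 to 0.29 in PTX_IP, and the replication median from -0.61 to 0.60 in PTX_IP. With means of log2 CPM in place of sums, the span between tumors was 3.28-fold for mitosis and 2.74-fold for replication genes. The IP groups hold 2 tumors each, and the median SE of a member's log2 fold change against the control was 0.34 in NCTD_IT and 0.37 in PTX_IT.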
